A study of Mus musculus with 24 samples.

Results

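Livers labelled semaglutide were compared with livers labelled vehicle, 8 libraries against 8, which are 16 of the 24 libraries of the series. The libraries were taken by their treatment label alone, and the 8 livers given vutiglabridin, another drug, appear below only as values set beside these. All of them are mouse livers from a drug study of NASH, nonalcoholic steatohepatitis, in which a fat-laden liver becomes inflamed and scarred. The labels give the treatment and the tissue only: strain, diet, disease model, sex, age, dose, route and duration are not stated, nor whether 1 sample is 1 animal. The p-values therefore weigh differences against the spread among these samples alone, and that spread may be technical. No healthy liver was analysed here, so each change is one between treated and untreated diseased livers.

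Semaglutide is a long-lived mimic of the gut hormone GLP-1. Its receptor, encoded by Glp1r, sits mainly on insulin-secreting cells and on nerve cells that govern appetite, and its activation raises cyclic AMP, promotes insulin release and lowers food intake and body weight. In steatohepatitis, hepatocytes store triglyceride in lipid droplets, macrophages gather and take up lipid and dead cells, and hepatic stellate cells turn into collagen-making myofibroblasts. Bulk liver RNA reads all of these cells at once.

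Expression is given in FPKM, a count of sequenced fragments divided by the transcript's length and the library's size. The smallest FPKM values lie on steps made by single fragments, and these steps implied a depth of 9.32 to 12.4 M fragments (M for mega) per semaglutide library and 11.98 to 19.8 M per vehicle library. The mean implied depth was 10.7 ± 1.21 M under semaglutide against 14.4 ± 2.71 M under vehicle (SD, n = 8 per group, 2-sided exact permutation test, p = 0.00124). The summed FPKM per library was 343428 ± 14751 in semaglutide and 330352 ± 14299 in vehicle livers (SD, n = 8), a difference that did not pass the same exact permutation test (p = 0.0937). Vehicle replicate 7 had the deepest library and, within its group, the highest mean level of the Kupffer cell, recruited macrophage, stellate cell and matrix lists. The semaglutide columns also differ from the rest in their content: for each of 3 genes with a pair of rows under 1 symbol (Aldoa, Ggnbp1 and St6galnac2), both rows hold identical values in all 8 semaglutide libraries and in 0 of the vehicle or vutiglabridin libraries. Treatment and this difference cannot be told apart, in any result below, and vehicle and vutiglabridin values share a format that semaglutide values do not. On the first principal component, with 37.7% of the variance, all 8 semaglutide libraries lay on one side of all 8 vehicle libraries. Semaglutide replicates 5 and 7 lay nearest to vehicle there and apart from the other 6 on the second component, with 10.8% of the variance. They were also the deepest semaglutide libraries, at 12.4 and 12.16 M fragments, and the only ones within the vehicle range of depth. The tissue label fitted the level of albumin (Alb), the main secreted protein of hepatocytes. It lay at 22094 (20097 to 24506) FPKM in vehicle livers and at 27644 (21919.9 to 31308) in semaglutide livers. No listed marker with a row in the deposited table was at 0 in all 16 livers. Some listed markers have no row, and of 10 acinar markers 2 have one, so the absence of zeros does not bear on the label.

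Semaglutide livers differed from vehicle livers in 3351 of the 11400 genes tested (29.4%), by limma at a Benjamini-Hochberg adjusted p under 0.05. Of these, 1730 (15.2% of the genes tested) were higher and 1621 (14.2%) were lower. Most changes were small: 62 genes (0.544%) passed with a change of at least 2-fold on the log2(FPKM + 1) scale, on which all changes below are given and which understates the change of low genes. Without vehicle replicate 7, 1585 genes passed as higher and 1395 as lower, and without semaglutide replicates 5 and 7 the counts were 1880 and 1894. Leaving out those 2 semaglutide libraries also leaves no overlap in implied depth between the groups. In 669 genes (5.87%) the 2 groups of livers did not overlap at all, and 470 of these were higher and 199 lower under semaglutide. Rescaling each library to the same total (TPM) shifted the median of all genes from -0.01 to -0.07 and the split of passing genes to 1283 higher and 2233 lower. The groups differed in implied depth, and with that depth as a covariate 1139 genes passed, 684 higher and 455 lower, of which 953 were among the 3351 and kept their direction. Depth and treatment go together in these libraries and their parts in the calls cannot be told apart, so counts with the depth covariate are given below for the gene lists. From here on a level is the median FPKM of the 8 livers with the lowest and highest liver in parentheses, and a log2 change is given with its standard error and limma's adjusted p. Where a call was lost with the depth covariate, the adjusted p of that fit follows as the value with depth.

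**Figure D1:**
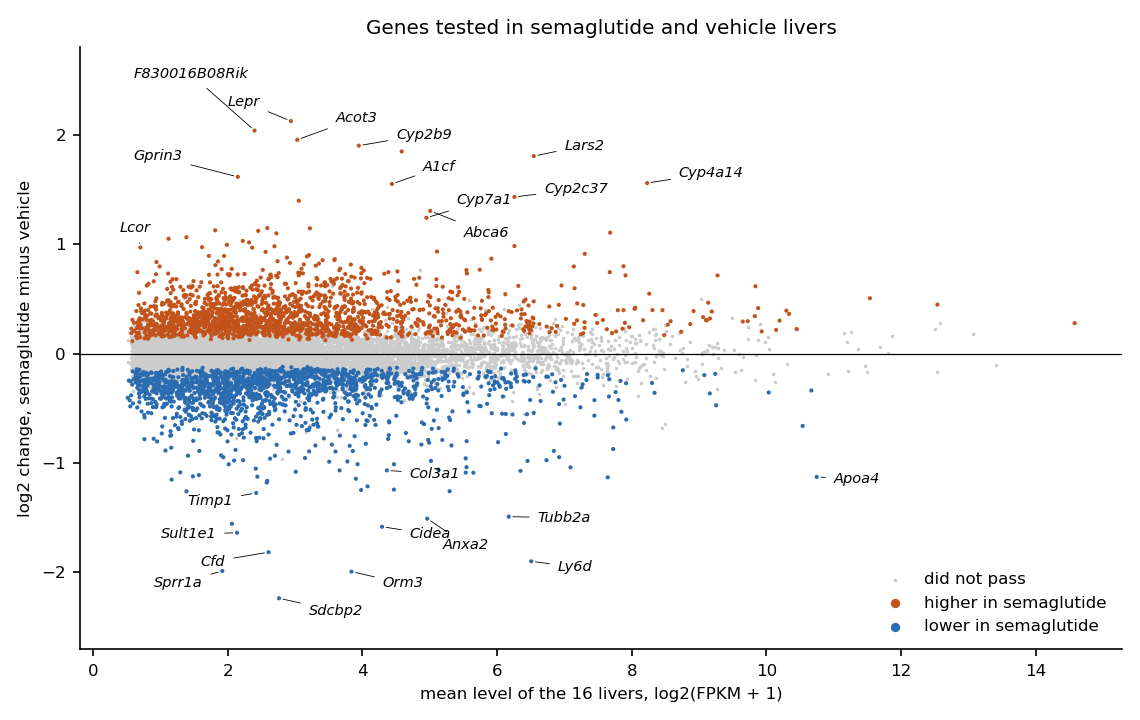
Change of each tested gene (vertical axis, log2 semaglutide minus vehicle) against its mean level in the 16 livers (horizontal axis, log2 of FPKM + 1). Orange points were higher and blue points lower in semaglutide livers at an adjusted p under 0.05, and most of the 3351 lie within 2-fold of no change.

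The direction of change followed the base composition and the length of the genes. Among the 1140 genes with the lowest GC content of exons (31.0 to 41.4%), 37.3% rose and 4.04% fell. Among the 1140 with the highest GC content (57.8 to 72.8%), 4.39% rose and 15.5% fell. The 1140 genes with the longest exons (9647 to 41155 bases) rose in 40.4% and fell in 6.23% of cases, whereas the 1140 shortest (255 to 1739 bases) rose in 4.65% and fell in 16.8%. Across the 11400 genes, which are not independent replicates, Spearman's rho of the change was -0.31 with GC content and 0.27 with exon length. Against the mean of all 16 livers, the trend with GC content was negative in 6 of 8 semaglutide libraries, between -0.50 and -0.20, and positive in replicates 5 (0.32) and 7 (0.15). Vehicle libraries varied as well, from -0.09 to 0.49, with 3 negative and 5 positive. After a smooth trend with GC content and length had been removed from each library, rho was 0.04 and -0.04, and 1832 genes passed as higher (16.1%) and 1715 as lower (15.0%). With implied depth as a covariate rho was 0.06 with GC content and 0.11 with exon length. Depth and treatment cannot be told apart in that fit, and the cause of the trend was not tested. Changes after removal of the GC and length trend are given below for some genes and lists only, and counts of other lists moved as well.

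**Figure D2:**
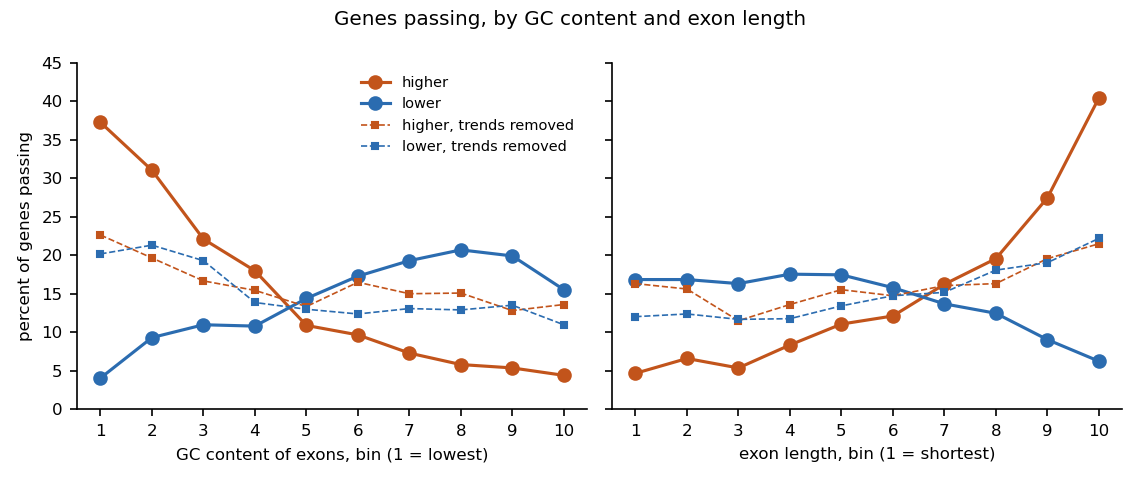
Percent of genes that passed as higher (orange) or lower (blue) in semaglutide livers, in 10 bins of 1140 genes by GC content of exons (left) and exon length (right). Solid lines are the deposited FPKM, on which 40.4% of the longest genes rose, and dashed lines are the values after each library's GC and length trend was removed, on which 21.5% of them rose and 22.2% fell.

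The largest rise was that of Lepr, which encodes the receptor for the fat-derived hormone leptin (ENSMUSG00000057722, GRCm38 chromosome 4, 101717404 to 101815352). Lepr lay at 1.88 (1.17 to 2.45) FPKM in vehicle livers and at 11.1 (7.3 to 18.3) in semaglutide livers (log2 change 2.12 ± 0.14, adjusted p = 1.49e-08). The lowest semaglutide liver had more Lepr than the highest vehicle liver, and the 8 vutiglabridin livers lay at 2.31 (1.52 to 3.3) FPKM, with a median within the vehicle range. The gene F830016B08Rik went from 1.005 (0.66 to 1.69) to 7.195 (5.24 to 12.2) FPKM (log2 change 2.04 ± 0.12, adjusted p = 5.16e-09). Gprin3, a G protein regulated inducer of neurite outgrowth (chromosome 6, 59347226 to 59426294), went from 1.15 (0.92 to 1.44) to 6.07 (3.4 to 7.5) FPKM (log2 change 1.61 ± 0.11, adjusted p = 4.28e-08). Both groups of values stood fully apart in these genes too, and the vutiglabridin medians, 1 (0.79 to 2.73) and 1.22 (0.6 to 2.12) FPKM, were again within the vehicle range. A1cf, the partner protein of the enzyme that edits apolipoprotein B messenger RNA (chromosome 19, 31868764 to 31948995), rose from 9.79 (8.13 to 12.6) to 30.5 (22.6 to 39.4) FPKM (log2 change 1.55 ± 0.11, adjusted p = 5.37e-08). Abca6, an ABC-family lipid transporter (chromosome 11, 110176820 to 110251776), rose from 18.04 (15.2 to 21.3) to 43.2 (37.9 to 54.1) FPKM (log2 change 1.30 ± 0.07, adjusted p = 3.55e-09). Neither overlapped between groups, and vutiglabridin livers lay at 11.6 (7.78 to 20.02) and 19.5 (14.2 to 25.9) FPKM. Lars2, the leucyl-tRNA synthetase of mitochondria, rose with more spread, from 36.1 (19.1 to 68.99) to 146 (63.9 to 274) FPKM (log2 change 1.80 ± 0.26, adjusted p = 6.21e-05), and the highest vehicle liver exceeded the lowest semaglutide liver.

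Enzymes and a secreted peptide made up most of the other large rises. Cyp4a14, a PPARA-driven omega-hydroxylase of fatty acids, lay at 151 (79.9 to 235) FPKM in vehicle and 446 (251 to 753) in semaglutide livers (log2 change 1.56 ± 0.23, adjusted p = 6.1e-05), with no overlap. Acot3, a peroxisomal acyl-CoA thioesterase, went from 2.04 (0.63 to 4.27) to 12.3 (2.73 to 18.5) FPKM (log2 change 1.95 ± 0.29, adjusted p = 7.85e-05), with overlap between the groups; 20.6% of its exon length is shared with another annotated gene. Cyp2c37, a P450 of arachidonic acid metabolism, went from 37.8 (25.6 to 59.6) to 111 (69.4 to 141) FPKM (log2 change 1.43 ± 0.16, adjusted p = 6.88e-06), with no overlap. The female-biased P450 genes Cyp2b9 and Cyp2a4 rose by 1.90 ± 0.37 and 1.85 ± 0.43 (adjusted p = 0.000923 and 0.00362, 0.0901 with depth), and semaglutide livers varied widely, with 21.9 (6.14 to 41.03) and 17.2 (12.6 to 111) FPKM. Tff3, a trefoil peptide of mucus, rose by 1.40 ± 0.50 (adjusted p = 0.043, 0.227 with depth) with 4.45 (1.69 to 59.5) FPKM in semaglutide livers, and it lost its call in 10 of the 16 fits that left 1 liver out. The vutiglabridin median of Cyp2c37, 121 (68.3 to 228) FPKM, lay above the highest vehicle liver. So did those of Cyp4a14, 238 (83.8 to 449) FPKM, and Tff3, 8.215 (2.05 to 14.7) FPKM. The vutiglabridin medians of Acot3, Cyp2b9 and Cyp2a4 lay within the vehicle range. Members of the Cyp2a, Cyp2b, Cyp2c, Cyp4a and Acot families are near-identical to their neighbours, so their values as single genes are uncertain.

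The largest fall was that of Sdcbp2, an adaptor protein with PDZ domains (ENSMUSG00000027456, chromosome 2, 151572622 to 151590005). It lay at 9.57 (7.06 to 14.4) FPKM in vehicle and at 1.76 (0.22 to 2.94) in semaglutide livers (log2 change -2.24 ± 0.22, adjusted p = 1.34e-06). Sprr1a, a small proline-rich protein made by stressed epithelia, fell from 4.995 (2.8 to 7.31) to 0.54 (0 to 1.33) FPKM (log2 change -1.99 ± 0.19, adjusted p = 1.06e-06). Ly6d, a surface protein anchored in the membrane by a lipid, fell from 124 (91.5 to 226) to 39.7 (11.99 to 81.9) FPKM (log2 change -1.90 ± 0.35, adjusted p = 0.000513, 0.0549 with depth). No semaglutide liver reached the lowest vehicle liver in these 3 genes, and the vutiglabridin medians, 2.44 (1.2 to 8.21), 0.845 (0.1 to 4.48) and 55.6 (31.5 to 69.1) FPKM, were below it too. Orm3, of the orosomucoid family of acute phase plasma proteins, was tightly held in vehicle at 21.2 (18.6 to 23.3) FPKM and lay at 5.37 (0.96 to 10.8) in semaglutide livers (log2 change -1.99 ± 0.28, adjusted p = 4.05e-05), while vutiglabridin livers varied widely at 15.5 (7.2 to 55.8), with a median below the lowest vehicle liver. Anxa2, a calcium-dependent membrane-binding protein, fell from 43.7 (32.2 to 61.05) to 14.6 (9.69 to 22.3) FPKM (log2 change -1.51 ± 0.15, adjusted p = 1.68e-06), and Timp1 is described with the matrix genes. Orm3 and Anxa2 did not overlap between groups.

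In most of the other large falls the 2 groups overlapped. Sult1e1, which inactivates estrogens by sulfation, fell from 5.95 (3.02 to 8.31) to 0.85 (0.37 to 3.37) FPKM (log2 change -1.64 ± 0.21, adjusted p = 2.03e-05), and Tubb2a, a beta-tubulin, from 92.8 (42.2 to 203) to 33.2 (17.03 to 65.7) (log2 change -1.49 ± 0.31, adjusted p = 0.00152). Gsta1, a glutathione transferase, fell from 4.91 (3.78 to 7.44) to 0.99 (0.3 to 3.61) FPKM (log2 change -1.56 ± 0.20, adjusted p = 1.58e-05), and Gm3776 fell as well (log2 change -1.26 ± 0.14, adjusted p = 5.05e-06). Gm3776 and Gsta1 are close relatives and share sequence, so they are not 2 independent observations. Cfd, the serine protease adipsin, which is abundant in adipocytes, lay at 6.79 (0.88 to 17.9) FPKM in vehicle and 0.755 (0 to 9.27) in semaglutide livers (log2 change -1.82 ± 0.46, adjusted p = 0.006, 0.228 with depth).

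**Figure D3:**
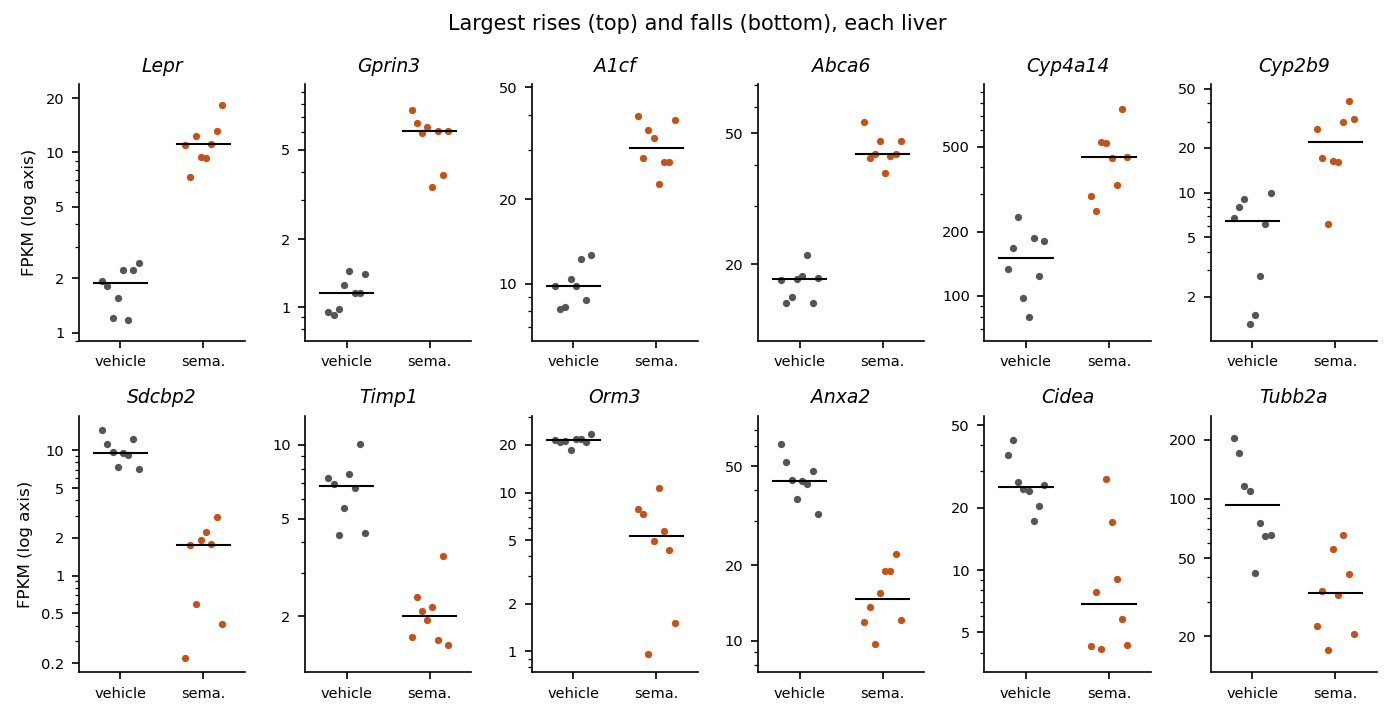
FPKM of 12 genes in each of the 8 vehicle (grey) and 8 semaglutide (orange) livers, on log axes; black bars are medians. The top row holds genes that rose and the bottom row genes that fell, and in Lepr the semaglutide livers at 7.30 to 18.3 FPKM sit above every vehicle liver.

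Lists of genes for pathways and cell types were then read by how many tested members rose or fell. These counts are set against 15.2% higher and 14.2% lower among all genes. Counts from another fit are set against that fit's own totals. Of 11400 genes, 684 were higher and 455 lower with the depth covariate, and 1283 and 2233 on the TPM scale. After removal of the GC and length trend 16.1% were higher and 15.0% lower. Of 11325 genes, 1880 were higher and 1894 lower without semaglutide replicates 5 and 7. Without vehicle replicate 7, 1585 and 1395 of 11356 passed, and 503 and 350 with the depth covariate as well. A list's median change is set against -0.01 over all genes tested.

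**Figure D4:**
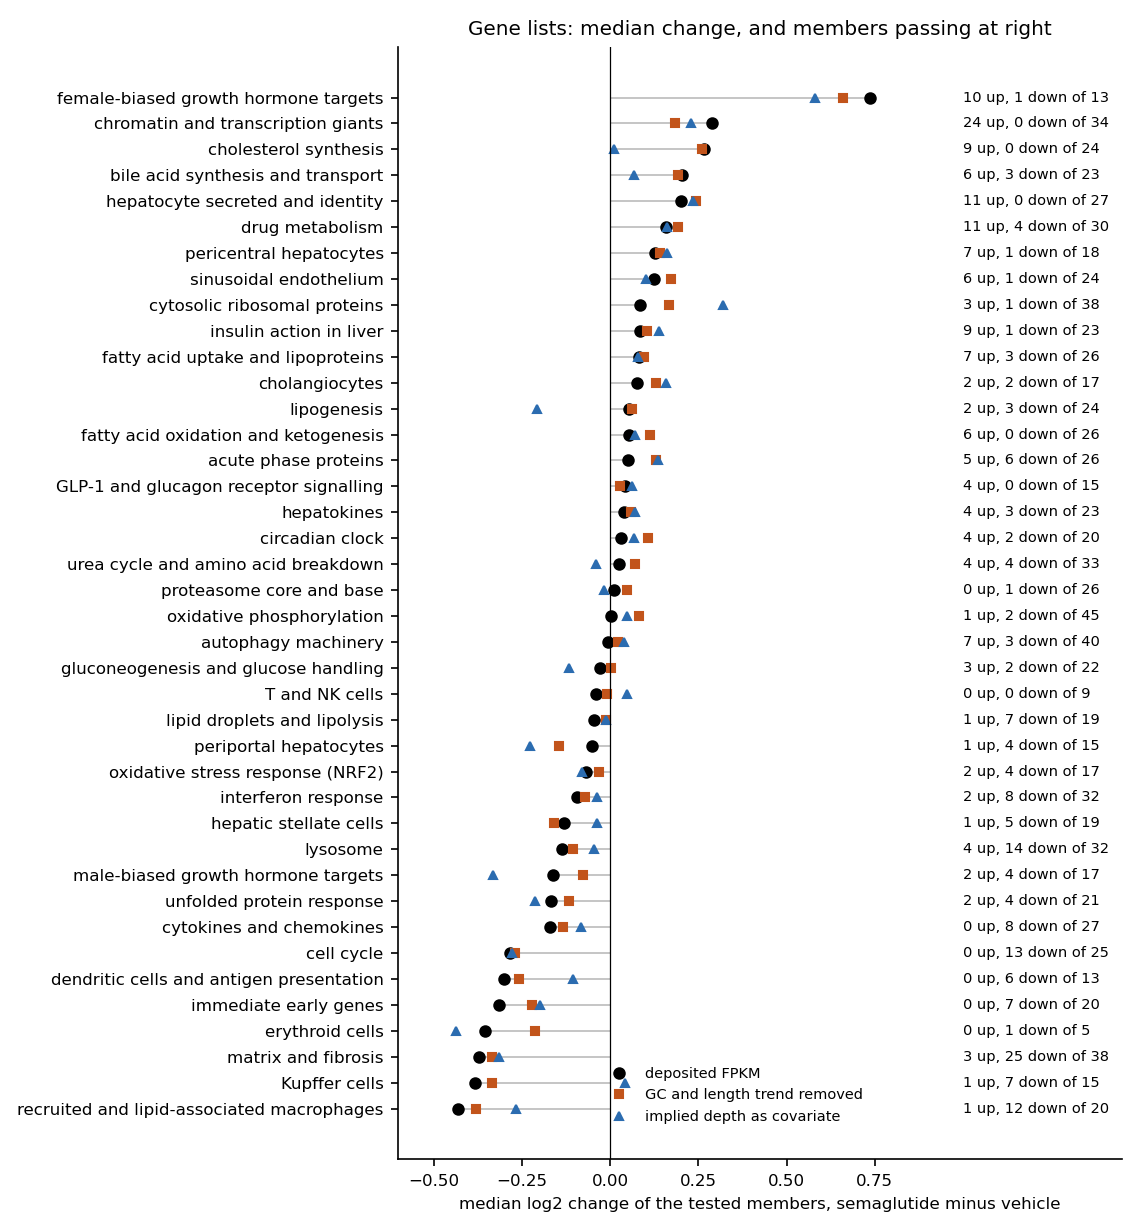
Median log2 change of the tested members of each gene list with at least 5 tested members (black circles), after removal of the GC and length trend (orange squares) and with implied depth as a covariate (blue triangles); the counts at right are members that passed. The lists of lipid-associated macrophages, Kupffer cells and matrix genes have the lowest medians and the female-biased growth hormone targets the highest, and the Kupffer cell median moves from -0.38 to 0.04 with the depth covariate.

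Genes of scar tissue were lower in semaglutide livers. Of 38 tested members of the matrix list, 25 fell and 3 rose, with a median change of -0.37 (9 fell and 1 rose with the depth covariate). Timp1, an inhibitor of the metalloproteinases that degrade matrix (chromosome X, 20870166 to 20874735), fell from 6.79 (4.3 to 10.1) to 2.01 (1.53 to 3.52) FPKM (log2 change -1.27 ± 0.14, adjusted p = 5.66e-06). Col3a1, a fibrillar collagen chain (chromosome 1, 45311538 to 45349706), fell from 26.8 (21 to 37.8) to 11.3 (8.52 to 17.5) FPKM (log2 change -1.07 ± 0.14, adjusted p = 1.97e-05). Loxl2, which cross-links collagen, lay at 2.14 (1.63 to 2.4) and 0.945 (0.71 to 1.29) FPKM (log2 change -0.64 ± 0.08, adjusted p = 8.77e-06). In none of these 3 did the groups overlap, nor in Col14a1, a fibril-associated collagen (log2 change -0.76 ± 0.09, adjusted p = 1.19e-05). Col1a1, the main collagen of scars, fell from 18.6 (14.03 to 29.5) to 10.1 (6.26 to 17.3) FPKM (log2 change -0.82 ± 0.16, adjusted p = 0.000811, 0.0511 with depth), with overlap. The small proteoglycan Dcn, which binds collagen fibrils, fell (log2 change -0.38 ± 0.08, adjusted p = 0.00124). Fibronectin (Fn1), which hepatocytes also secrete into plasma, went the other way, from 120.1 (110.4 to 134) to 162 (131 to 205) FPKM (log2 change 0.46 ± 0.08, adjusted p = 0.000523), with a small overlap. Without vehicle replicate 7, 23 matrix genes fell and 4 rose.

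Stellate cells, the source of much of this matrix, showed a mixed picture. Of 19 tested markers 5 fell and 1 rose (1 and 1 with the depth covariate), and the summed level of all 19 ranged over 137 to 169.7 FPKM in semaglutide and 168 to 277 in vehicle livers. Acta2, the smooth muscle actin of myofibroblasts, fell from 3.56 (2.23 to 6.1) to 1.695 (0.79 to 2.04) FPKM (log2 change -0.93 ± 0.15, adjusted p = 0.000176). Tagln, a smooth muscle actin-binding protein, fell (log2 change -0.70 ± 0.14, adjusted p = 0.00101, 0.12 with depth), although 67.9% of its exon length lies opposite an unnamed gene on the other strand and strand use in counting is not stated in the sources used here. Neither Acta2 nor Tagln overlapped between groups. Hgf, a growth factor for hepatocytes, was the marker that rose, from 0.83 (0.58 to 1.14) to 1.85 (1.14 to 2.07) FPKM (log2 change 0.58 ± 0.08, adjusted p = 3.36e-05). In bulk liver, fewer cells of a type and less RNA per cell cannot be told apart.

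Markers of recruited, lipid-laden macrophages were lower, with calls that differed between fits. Of 20 tested, 12 fell and 1 rose, with a median of -0.43. Without vehicle replicate 7, 11 fell, and with the depth covariate none did and the median was -0.27. With both the covariate and that library left out, 2 fell at a median of -0.37. Lgals3, a galectin of activated macrophages, went from 18.6 (13.1 to 35.5) to 8.08 (5.05 to 11.8) FPKM (log2 change -1.14 ± 0.18, adjusted p = 0.000162, 0.0671 with depth). Trem2, a receptor for lipids on scar-associated macrophages, went from 3.32 (2.5 to 5.55) to 1.81 (1.08 to 2.44) FPKM (log2 change -0.72 ± 0.13, adjusted p = 0.000449, 0.11 with depth), and Gpnmb, a glycoprotein of the same cells, from 8.29 (5.3 to 16.1) to 4.45 (1.63 to 6.3) (log2 change -0.90 ± 0.21, adjusted p = 0.0035, 0.304 with depth). Lgals3 and Trem2 did not overlap between groups, while Gpnmb did. The monocyte receptor Ccr2 and its ligand Ccl2 fell, with log2 changes of -0.37 ± 0.09 and -0.60 ± 0.15 (adjusted p = 0.0035, 0.0618 with depth, and 0.00471, 0.277 with depth). Osteopontin (Spp1) did not pass, at 239 (140.4 to 321) and 207 (85.7 to 267) FPKM (adjusted p = 0.294). The member that rose was Fabp5, a fatty acid binding protein also made by hepatocytes, from 2.88 (2.02 to 3.98) to 6.57 (4.79 to 17.03) FPKM (log2 change 1.10 ± 0.19, adjusted p = 0.000286).

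Resident Kupffer cell markers gave a less stable reading. Of 15 tested, 7 fell and 1 rose, with a median of -0.38, against 5 without vehicle replicate 7 (median -0.23) and none with the depth covariate (median 0.04). The summed level of the 18 markers was 376 to 886 FPKM in vehicle livers, with replicate 7 at the top, and 279 to 436 in semaglutide livers. Clec4f, the lectin that defines these cells, did not pass, at 24.5 (16.6 to 70.7) and 21.5 (12.8 to 30.9) FPKM (adjusted p = 0.29). Complement C1qb (log2 change -0.63 ± 0.16, adjusted p = 0.00521, 0.501 with depth) and Cd5l, a protein these macrophages secrete (log2 change -0.73 ± 0.23, adjusted p = 0.0233, 0.61 with depth), fell. Adgre1, which encodes the pan-macrophage marker F4/80, fell (log2 change -0.42 ± 0.15, adjusted p = 0.0434, 0.878 with depth), and it lost that call in 10 of the 16 fits that left 1 liver out.

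**Figure D5:**
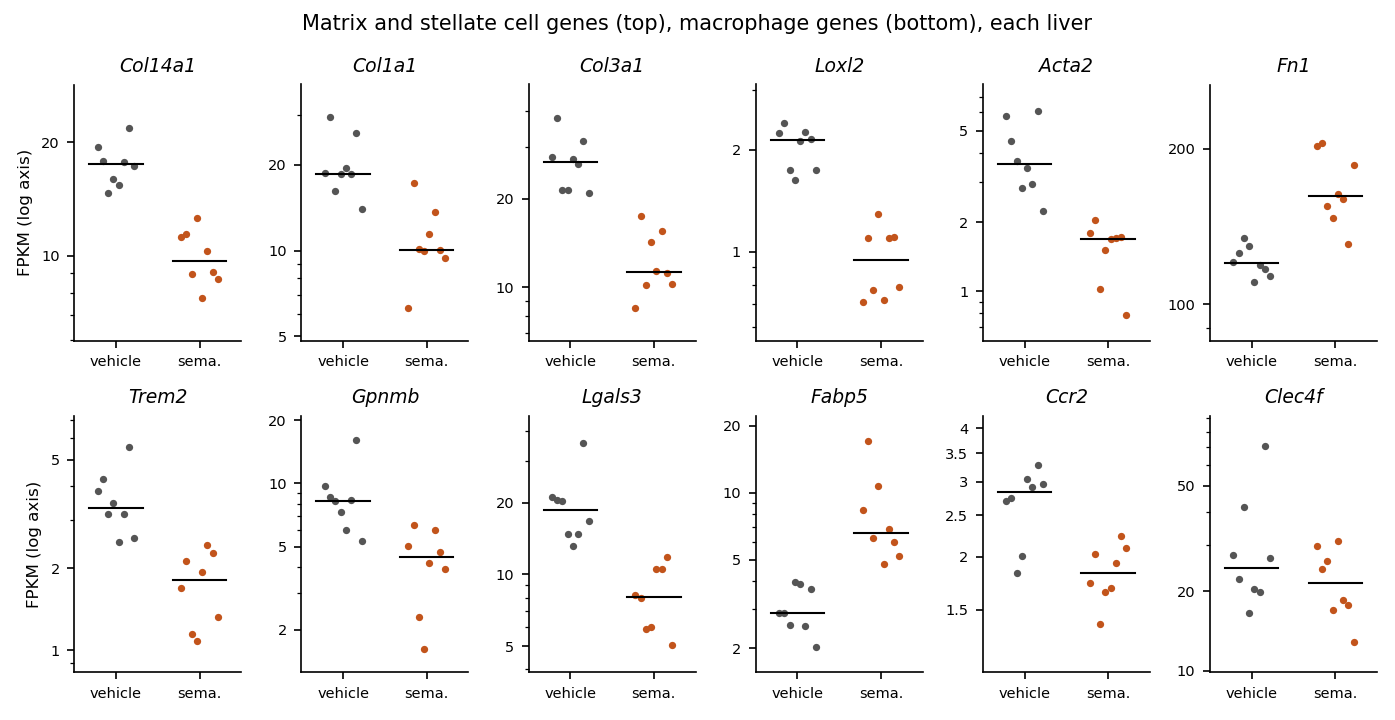
FPKM of 6 matrix or stellate cell genes (top) and 6 macrophage genes (bottom) in each vehicle (grey) and semaglutide (orange) liver, on log axes; black bars are medians. Col3a1, Loxl2, Acta2, Trem2 and Lgals3 fell with no overlap between groups, Fn1 and Fabp5 rose, and the Clec4f values of both groups overlap.

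Some genes of antigen presentation fell. Of 13 tested members 6 fell and 7 did not pass, with a median of -0.30 (none with the depth covariate, at a median of -0.10). H2-DMb1, which helps load peptides on class II molecules, fell (log2 change -0.65 ± 0.11, adjusted p = 0.000178, 0.059 with depth), while the class II chaperone Cd74 did not pass (adjusted p = 0.115). Of 27 tested cytokines and chemokines 8 fell and none rose, and 1 fell and 1 rose with the depth covariate. Cxcl14, a chemokine, fell from 4.005 (3.12 to 8.36) to 1.51 (0.97 to 2.57) FPKM (log2 change -1.01 ± 0.15, adjusted p = 5.86e-05), with no overlap. None of 9 tested T and NK cell markers and none of 4 tested B and plasma cell markers passed, with or without the depth covariate. The summed levels of these markers were low for T and NK cells, at 6.81 to 16.4 FPKM over 18 genes in vehicle and 7.57 to 15.4 in semaglutide livers.

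Interferon and acute phase genes were divided. Of 32 tested interferon response genes 8 fell and 2 rose (4 and 2 after removal of the GC and length trend, none with the depth covariate). Ubd, a ubiquitin-like protein induced by interferon gamma, fell from 28.3 (21.3 to 43.03) to 10.4 (5.04 to 22.5) FPKM (log2 change -1.24 ± 0.24, adjusted p = 0.000821, 0.0721 with depth). Gbp7, a guanylate-binding protein, rose by 0.56 ± 0.09 (adjusted p = 0.000237, 0.0721 with depth). Of 26 tested acute phase genes 6 fell and 5 rose (2 and 2 with the depth covariate). Besides Orm3, serum amyloid Saa1 fell from 106 (77.8 to 137) to 54.3 (18.5 to 108) FPKM (log2 change -1.07 ± 0.25, adjusted p = 0.00359, 0.213 with depth), and Orm2 and the iron-scavenging lipocalin Lcn2 fell, with log2 changes of -1.09 ± 0.23 and -1.06 ± 0.24 (adjusted p = 0.00176 and 0.00281, 0.249 with depth). Fibrinogen chain Fgb rose, from 813 (727 to 838) to 1007 (838 to 1386) FPKM (log2 change 0.41 ± 0.10, adjusted p = 0.00318, 0.0973 with depth), and its groups did not overlap.

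Some genes of lipid droplets fell. Of 19 tested droplet and lipolysis genes 7 fell and 1 rose, while 11 did not pass (2 and 1 with the depth covariate), and the list's median change was -0.04. Cidea and Cidec fuse small droplets into large ones. Cidec fell from 78.6 (70.7 to 93.8) to 44.7 (27.4 to 68.1) FPKM (log2 change -0.81 ± 0.13, adjusted p = 0.00018), with no overlap. Cidea fell from 25.1 (17.3 to 42.6) to 6.83 (4.17 to 27.6) FPKM (log2 change -1.58 ± 0.31, adjusted p = 0.000812), and semaglutide replicate 4 alone lay within the vehicle range. The perilipins that coat droplets, Plin2 and Plin4, fell, with log2 changes of -0.42 ± 0.11 and -1.25 ± 0.22 (adjusted p = 0.00686, 0.106 with depth, and 0.000444, 0.0766 with depth). With the depth covariate the changes were -0.42 and -0.89. Hepatic Plin2 levels were 252 (208 to 317) FPKM in vehicle and 187 (142 to 233) in semaglutide livers.

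Genes that make fatty acids and triglyceride did not move together. Of 24 tested lipogenesis genes 2 rose and 3 fell (none and 1 with the depth covariate). Fatty acid synthase (Fasn) lay at 163 (103 to 240.4) FPKM in vehicle and 186 (87.8 to 347) in semaglutide livers, and the desaturase Scd1 at 5617 (3615 to 6592) and 6306 (4067 to 9811), and neither passed (adjusted p = 0.79 and 0.274). Their signs turned with the depth covariate. Mogat1, which makes diacylglycerol, fell from 4.69 (3.14 to 8.97) to 1.98 (1.25 to 3.23) FPKM (log2 change -0.97 ± 0.15, adjusted p = 0.000144). Acacb, the carboxylase whose product blocks fat entry into mitochondria, rose from 20.4 (13.1 to 35.2) to 34.1 (20.4 to 47.7) FPKM (log2 change 0.69 ± 0.20, adjusted p = 0.0138, 0.51 with depth).

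Among 26 tested genes of fatty acid uptake and lipoproteins, 7 rose and 3 fell (5 and 2 with the depth covariate). Apoa4, an apolipoprotein that rises with hepatic triglyceride, fell from 2299 (1981 to 3406) to 1115 (649.6 to 1395) FPKM (log2 change -1.13 ± 0.14, adjusted p = 1.19e-05) with no overlap, but 69.8% of its exon length lies opposite an unnamed gene. Vldlr, a receptor for triglyceride-rich lipoproteins, rose from 0.615 (0.48 to 0.87) to 1.68 (1.29 to 2.04) FPKM (log2 change 0.73 ± 0.06, adjusted p = 5.98e-07), also with no overlap. Fabp4, the fatty acid binding protein of adipocytes and macrophages, fell (log2 change -0.96 ± 0.17, adjusted p = 0.000352). Of 26 tested genes of fatty acid oxidation and ketogenesis 6 rose and none fell, against 4 and 3 on the TPM scale, 10 and 1 after removal of the GC and length trend and 3 and none with the depth covariate. Ppara, the nuclear receptor that drives these genes, went from 28.5 (21.1 to 32.8) to 37.98 (33.1 to 42.1) FPKM (log2 change 0.41 ± 0.08, adjusted p = 0.0011), with no overlap. Its targets Acot1 and Cyp4a14 rose, Acot1 by 0.98 ± 0.18 (adjusted p = 0.000679). Cpt1a, the gate of mitochondrial fat oxidation, rose by 0.26 ± 0.08 (adjusted p = 0.0185, 0.228 with depth) and did not pass on the TPM scale (adjusted p = 0.0588).

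Genes of cholesterol synthesis rose or did not pass, and those of bile acids went both ways. Of 24 tested cholesterol synthesis genes 9 rose and none fell, with a median of 0.27, and with the depth covariate 1 rose and the median was 0.01. Tm7sf2, a sterol reductase, rose from 9.36 (7.93 to 11.7) to 14.2 (11.6 to 22.8) FPKM (log2 change 0.61 ± 0.11, adjusted p = 0.000499, 0.0733 with depth), Fdft1, the squalene synthase, by 0.47 ± 0.10 (adjusted p = 0.00125, 0.121 with depth) and Scap, the sterol sensor that escorts SREBP, by 0.38 ± 0.07 (adjusted p = 0.000828). Of 23 tested bile acid genes 6 rose and 3 fell (9 and 3 without semaglutide replicates 5 and 7), and none passed with the depth covariate. Cyp7a1, the rate-limiting enzyme of bile acid synthesis, rose from 14.1 (9.03 to 30.4) to 36.6 (20.9 to 75.8) FPKM (log2 change 1.24 ± 0.28, adjusted p = 0.0027, 0.246 with depth). Nr0b2, which encodes SHP, the repressor of Cyp7a1, fell from 50.1 (28.3 to 79.3) to 23.7 (18.3 to 46.2) FPKM (log2 change -0.84 ± 0.22, adjusted p = 0.00788, 0.106 with depth). Slc10a1, which takes bile acids up from blood, rose from 152 (118 to 203) to 254 (168 to 346) FPKM (log2 change 0.74 ± 0.13, adjusted p = 0.00034, 0.0748 with depth). The values of all 3 overlapped between groups, and Cyp7a1 had a change of 0.71 with the depth covariate.

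The drug's own receptor was scarcely detected. Glp1r lay between 0 and 0.12 FPKM in vehicle and between 0 and 0.10 in semaglutide livers, below the level set for testing. The related glucagon receptor Gcgr, which hepatocytes do carry, lay at 105 (86.99 to 121) and 95.3 (86.3 to 116) FPKM and did not pass (adjusted p = 0.418). Of 15 tested genes of this signalling 4 rose and none fell (none passed with the depth covariate), with Rapgef4, a cyclic AMP sensor, the largest at 0.68 ± 0.14 (adjusted p = 0.00104, 0.0513 with depth). Of 22 tested genes of glucose handling 3 rose and 2 fell (none and 1 with the depth covariate). The gluconeogenic enzymes G6pc, at 95.9 (54.01 to 163) and 59.5 (33.4 to 139.8) FPKM, and Pck1, at 536 (320.3 to 766) and 456 (284 to 648), did not pass (adjusted p = 0.112 and 0.291). Their coactivator Ppargc1a rose from 1.86 (1.44 to 2.25) to 2.72 (2.3 to 3.2) FPKM (log2 change 0.40 ± 0.07, adjusted p = 0.000286, 0.0721 with depth), with no overlap.

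Several genes of insulin action rose. Of 23 tested 9 rose and 1 fell, and all 8 semaglutide livers had a higher mean level of the list than any vehicle liver (6 rose and none fell with the depth covariate). The insulin receptor Insr rose from 9.22 (7.68 to 10.5) to 14.3 (11.1 to 17.9) FPKM (log2 change 0.55 ± 0.08, adjusted p = 7.89e-05), and its substrate Irs2 from 3.81 (2.93 to 4.51) to 5.68 (4.03 to 8.08) (log2 change 0.53 ± 0.10, adjusted p = 0.000796). Rictor, a subunit of the mTORC2 kinase complex, rose by 0.51 ± 0.05 (adjusted p = 4.14e-06), as did a negative regulator of the pathway, the mTOR inhibitor Deptor (0.51 ± 0.09, adjusted p = 0.0003). Igfbp2, an IGF-binding plasma protein that leptin is known to raise, went from 177 (130.2 to 259.9) to 285 (244 to 366) FPKM (log2 change 0.71 ± 0.13, adjusted p = 0.000392). With the depth covariate and without vehicle replicate 7, 3 rose and none fell, and Insr, Irs2 and Deptor lost their calls. The list's median exon length was 9088 bases against 4346 over all genes tested. Removal of the GC and length trend left 9 rising and 1 falling.

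Growth hormone sets sex-biased expression in mouse liver, and most of the female-biased targets rose. Of 13 tested 10 rose and 1 fell, with a median of 0.74. With the depth covariate 6 rose and 1 fell, and without vehicle replicate 7 as well 3 rose and 1 fell. All 8 semaglutide livers had a higher mean level of the list than any vehicle liver. Besides Acot3, Cyp2b9 and Cyp2a4, the peroxisomal transporter Abcd2 went from 4.79 (3.67 to 5.65) to 11.5 (7.56 to 16.9) FPKM (log2 change 1.14 ± 0.13, adjusted p = 7.84e-06) and the prolactin receptor Prlr from 2.21 (1.57 to 3.25) to 5.27 (3.82 to 10.1) (log2 change 1.01 ± 0.13, adjusted p = 2.32e-05), both with no overlap. The cytokine receptor Lifr rose by 0.69 ± 0.11 (adjusted p = 0.000166). Of 17 tested male-biased targets 4 fell and 2 rose (1 and none with the depth covariate). Serpina12, which encodes the secreted protein vaspin, fell from 37.02 (27.3 to 44.8) to 19.6 (14.8 to 25.9) FPKM (log2 change -0.83 ± 0.13, adjusted p = 9.19e-05), as did Selenbp2, a selenium-binding protein (log2 change -1.07 ± 0.26, adjusted p = 0.00429, 0.208 with depth). Igf1, the main growth hormone effector, rose by 0.40 ± 0.12 (adjusted p = 0.0165, 0.394 with depth) and did not pass once the GC and length trend was removed (0.18, adjusted p = 0.176). The labels do not state the sex of the mice.

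Drug-metabolising genes went both ways. Of 30 tested 11 rose and 4 fell (4 and 3 with the depth covariate). Cyp2e1, an ethanol-oxidising P450 of pericentral hepatocytes, rose from 2445 (1899.8 to 2959) to 3373 (2636 to 4971) FPKM (log2 change 0.51 ± 0.13, adjusted p = 0.00587, 0.0993 with depth), and Cyp2c29 by 0.91 ± 0.15 (adjusted p = 0.000187). Cyp2f2, a P450 of periportal hepatocytes, fell from 260.4 (169 to 352) to 132 (71.7 to 195) FPKM (log2 change -1.13 ± 0.19, adjusted p = 0.000263), and Fmo5, a flavin monooxygenase, from 271 (234 to 298) to 192 (155 to 206) (log2 change -0.53 ± 0.07, adjusted p = 1.98e-05). Of 18 tested pericentral markers 7 rose and 1 fell, and of 15 tested periportal markers 1 rose and 4 fell, and with the depth covariate the counts were 1 and 1, and none and 3. The periportal genes Aldh1b1, a mitochondrial aldehyde dehydrogenase, and Sds, which breaks down serine, fell, with log2 changes of -0.80 ± 0.10 and -0.89 ± 0.16 (adjusted p = 1.28e-05 and 0.000516). Of these, Aldh1b1 had no overlap between groups and 29.6% of the exon length of Sds lies opposite Plbd2.

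A list of very large regulators of chromatin, transcription and protein turnover was drawn up with the rise of such genes in these data in view, so its counts describe its members and do not speak for the class. Of 34 tested members 24 rose and none fell, with a median of 0.29. Their median exon length was 14569 bases against 4346 over all genes tested. After removal of the GC and length trend 18 rose and 2 fell, and with the depth covariate 15 rose and none fell. Lcor, a ligand-dependent nuclear receptor corepressor (chromosome 19, 41482637 to 41562261), lay at 0.1 (0.03 to 0.15) FPKM in vehicle and 1.05 (0.97 to 1.5) in semaglutide livers (log2 change 0.97 ± 0.06, adjusted p = 3.55e-09). Usp9x, a deubiquitinase, went from 2.81 (2.3 to 3.23) to 7.22 (5.49 to 9.11) FPKM (log2 change 1.15 ± 0.08, adjusted p = 5.98e-08), Stag2, a cohesin subunit, from 5.41 (4.64 to 6.37) to 11.1 (9.1 to 12.2) (log2 change 0.90 ± 0.07, adjusted p = 9.91e-08) and Atm, the kinase that answers DNA breaks, from 0.415 (0.36 to 0.61) to 1.42 (1.31 to 2.05) (log2 change 0.80 ± 0.06, adjusted p = 1.26e-07). No liver of one group reached the other in any of these 4 genes. With the GC and length trend removed their changes were 0.82, 0.90, 0.71 and 0.62. Vutiglabridin livers lay at 0.095 (0.06 to 0.18), 2.69 (2.25 to 3.61), 6.05 (3.86 to 6.81) and 0.435 (0.26 to 0.68) FPKM, with medians within the vehicle range. Lcor reached the 0.5 FPKM set for testing in no vehicle liver and Atm in few. Lcor was thus tested through the semaglutide livers alone, where it is high, and could not have come out as a fall.

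Genes of cell division fell or did not pass. Of 25 tested 13 fell and none rose, with a median of -0.28 (7 fell with the depth covariate). Mcm2, part of the helicase that opens DNA for copying, fell from 1.58 (1.17 to 1.98) to 0.99 (0.65 to 1.06) FPKM and Uhrf1, which copies DNA methylation at replication, from 0.765 (0.57 to 1.29) to 0.35 (0.22 to 0.51), both with no overlap (log2 change -0.40 ± 0.07 and -0.44 ± 0.08, adjusted p = 0.000438 and 0.000319). The mitotic kinase Cdk1 fell (log2 change -0.35 ± 0.07, adjusted p = 0.00112). Uhrf1 and Cdk1 reached 0.5 FPKM in every vehicle liver but in few semaglutide livers, so they were tested through the vehicle livers. Cdkn1a, the p53 target p21 that halts the cycle, also fell, from 7.12 (3.6 to 9.99) to 3.06 (0.87 to 5.37) FPKM (log2 change -1.16 ± 0.22, adjusted p = 0.000733, 0.0654 with depth).

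Immediate early genes, which respond within minutes to hormones and stress, fell or did not pass. Of 20 tested 7 fell and none rose, with a median of -0.32 (2 fell with the depth covariate, 12 without semaglutide replicates 5 and 7). Btg2, an antiproliferative gene, went from 17.7 (13.1 to 27.9) to 10.2 (5.02 to 12.8) FPKM (log2 change -1.01 ± 0.19, adjusted p = 0.000666), with no overlap. Dusp1, a phosphatase of stress kinases, went from 6.72 (4.77 to 8.29) to 4.03 (3.15 to 6.02) FPKM (log2 change -0.51 ± 0.12, adjusted p = 0.00463, 0.141 with depth), Fos, a subunit of AP-1, from 1.97 (0.96 to 2.74) to 0.77 (0.4 to 1.18) (log2 change -0.65 ± 0.14, adjusted p = 0.00143, 0.0875 with depth) and the heat shock gene Hspa1b from 3.94 (2.97 to 5.51) to 2.04 (1.04 to 2.76) (log2 change -0.80 ± 0.14, adjusted p = 0.000371). Vutiglabridin livers lay at 14.5 (10.5 to 31.02) FPKM for Btg2 and 7.38 (4.01 to 15.7) for Dusp1, with medians within the vehicle range. Because cyclic AMP is the messenger of both the GLP-1 and the glucagon receptor, the RefSeq start-site windows (GRCm38.p6) of tested genes were read for the palindromic cyclic AMP response element TGACGTCA, and 9074 genes had a window. The element was in the 250 bases before the start site of 268 of them (2.95%), of 46 of 1363 that rose (3.37%) and of 34 of 1291 that fell (2.63%). Among 17 immediate early genes with a window, Btg2 and Dusp1 held it, and their 250 bases, both on the minus strand, are shown 5′ to 3′ with the element in capitals. That of Btg2 lies at chr1:134079156-134079405 and that of Dusp1 at chr17:26508473-26508722.
Btg2: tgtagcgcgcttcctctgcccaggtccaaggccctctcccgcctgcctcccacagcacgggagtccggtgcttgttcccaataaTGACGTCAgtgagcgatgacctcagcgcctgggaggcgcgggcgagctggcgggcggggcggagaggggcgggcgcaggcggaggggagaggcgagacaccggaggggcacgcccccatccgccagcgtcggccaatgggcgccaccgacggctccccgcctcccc
Dusp1: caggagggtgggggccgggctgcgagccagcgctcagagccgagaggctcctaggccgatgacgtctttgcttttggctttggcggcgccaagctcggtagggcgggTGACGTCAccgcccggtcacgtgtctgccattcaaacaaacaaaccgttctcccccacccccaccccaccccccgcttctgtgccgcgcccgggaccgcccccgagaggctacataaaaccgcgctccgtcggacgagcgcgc
The element starts 166 bases before the start site of Btg2 and 143 bases before that of Dusp1, and the match is one of letters that says nothing of binding in these livers. The AP-1 motif TGANTCA (either strand; N is any base), which shares no full match with the element, was in 5.75% of all windows, in 4.55% of genes that rose and in 7.98% of genes that fell, and in 0 of the 17 immediate early genes.

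The general machinery of the cell gave small changes whose counts depended on the GC and length trend. Of 45 tested subunits of oxidative phosphorylation 1 rose and 2 fell, after that trend was removed 12 rose and 2 fell, and with the depth covariate 3 rose. Of 38 tested cytosolic ribosomal protein genes 3 rose and 1 fell, against 16 and 1 after removal, 15 and none with the depth covariate and 1 and 2 on the TPM scale. Rpl14 rose by 0.27 ± 0.07 (adjusted p = 0.0099), and cytochrome c (Cycs) fell (log2 change -0.33 ± 0.07, adjusted p = 0.00232, 0.117 with depth). Of 26 tested proteasome subunits 1 fell, Psmd8 (log2 change -0.33 ± 0.07, adjusted p = 0.00243, 0.148 with depth), after removal of the trend 3 rose and 1 fell, and none passed with the depth covariate.

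Autophagy genes, of interest because the series title concerns autophagy under the other drug, did not share a direction. Of 40 tested 7 rose and 3 fell, with a median of -0.01, on the TPM scale 4 rose and 5 fell, and with the depth covariate 4 rose. Rb1cc1, a scaffold of the complex that starts autophagy, went from 2.54 (1.94 to 3.3) to 4.4 (3.68 to 5.03) FPKM (log2 change 0.61 ± 0.07, adjusted p = 8.58e-06), and the kinase Ulk2 from 10.9 (10.5 to 13.1) to 14.4 (13.1 to 15.7) (log2 change 0.33 ± 0.05, adjusted p = 0.000208). Becn1, of the lipid kinase complex that follows, fell from 11.9 (11.3 to 12.3) to 10.5 (9.47 to 10.8) FPKM (log2 change -0.19 ± 0.04, adjusted p = 0.00215, 0.0786 with depth), with 43.9% of its exon length opposite Cntd1. Of 32 tested lysosomal genes 14 fell, 4 rose and 14 did not pass (9 fell and 4 rose without vehicle replicate 7, 2 and 1 with the depth covariate). Lamp1, a lysosomal membrane protein, was held within narrow limits, at 360.3 (352 to 383) FPKM in vehicle and 279.8 (277 to 295) in semaglutide livers (log2 change -0.36 ± 0.04, adjusted p = 1.22e-05), and the cathepsin Ctss fell (log2 change -0.55 ± 0.11, adjusted p = 0.00113, 0.126 with depth). Gaa, which degrades glycogen in lysosomes, rose from 19.8 (19.01 to 23.7) to 28.3 (27.4 to 35.04) FPKM (log2 change 0.51 ± 0.06, adjusted p = 1.21e-05), and Npc1, which exports cholesterol from them, by 0.37 ± 0.08 (adjusted p = 0.00143, 0.063 with depth). Neither Lamp1 nor Gaa overlapped between groups. Of the paraoxonases, lactone-hydrolysing enzymes named in the series title, Pon3 rose from 17.96 (15.7 to 20.5) to 22.1 (20.7 to 24.8) FPKM (log2 change 0.32 ± 0.06, adjusted p = 0.000624). Pon1 (adjusted p = 0.0711) and Pon2 (adjusted p = 0.46) did not pass, although Pon1 passed in 4 of 34 alternatives.

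Of 21 tested genes of the unfolded protein response 4 fell and 2 rose (2 and 1 with the depth covariate, 7 and 3 without semaglutide replicates 5 and 7). Sdf2l1, a cofactor of the chaperone BiP, fell from 28.1 (17.1 to 37.9) to 13.3 (7.42 to 27.5) FPKM (log2 change -1.01 ± 0.22, adjusted p = 0.00233, 0.156 with depth), BiP itself (Hspa5) fell (log2 change -0.35 ± 0.12, adjusted p = 0.0291, a call lost in 7 of the 16 fits that left 1 liver out), and the sensor Atf6 rose by 0.29 ± 0.05 (adjusted p = 0.000305). Of 17 tested genes of the NRF2 antioxidant response 4 fell and 2 rose (1 and 1 with the depth covariate), with Srxn1, which repairs peroxiredoxins, at -0.69 ± 0.14 (adjusted p = 0.00118, 0.0504 with depth). Of 20 tested clock genes 4 rose and 2 fell (1 and none with the depth covariate), and Rora and Nr1d2, nuclear receptors of the clock, rose by 0.51 ± 0.08 and 0.53 ± 0.11 (adjusted p = 7.54e-05 and 0.00125, 0.213 with depth). Times of day are not stated in the labels. Of 33 tested genes of urea synthesis and amino acid breakdown 4 rose and 4 fell (1 and 4 with the depth covariate), and the pyrimidine-degrading enzyme Dpyd rose from 38.02 (27.7 to 49.3) to 64.6 (54.5 to 83.6) FPKM (log2 change 0.77 ± 0.10, adjusted p = 1.97e-05). Among 23 tested hepatokines, proteins by which the liver signals to other organs, and their receptors, 4 rose and 3 fell (4 and 1 with the depth covariate). Inhba, an activin subunit, rose from 1.105 (0.91 to 1.55) to 1.99 (1.63 to 3.45) FPKM (log2 change 0.61 ± 0.10, adjusted p = 0.000151), while Fgf21 and Gdf15, hormones of metabolic stress, did not pass (adjusted p = 0.629 and 0.109).

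Markers of the other cells of the liver were read last. Hepatocyte identity genes rose or did not pass: of 27 tested 11 rose and none fell (8 and 1 on the TPM scale, 17 and none after removal of the GC and length trend, 5 and 1 with the depth covariate). Albumin rose by 0.28 ± 0.09 (adjusted p = 0.0331, 0.259 with depth), a call that was lost in 14 of 34 alternatives, among them the TPM scale (adjusted p = 0.0628), the replicate block (adjusted p = 0.0716) and 8 of the 16 fits that left 1 liver out. It was also lost with quantile normalization, as was that of Apoa1, the main protein of HDL, which rose otherwise (log2 change 0.45 ± 0.12, adjusted p = 0.0115). Of 24 tested sinusoidal endothelial markers 6 rose and 1 fell (3 and none with the depth covariate, 11 and 1 without semaglutide replicates 5 and 7). Dnase1l3, a secreted nuclease, rose from 5.93 (5.08 to 6.86) to 7.93 (7 to 9.24) FPKM (log2 change 0.38 ± 0.06, adjusted p = 0.000243) with no overlap, and Kdr, a VEGF receptor, by 0.43 ± 0.08 (adjusted p = 0.0006). Among 17 tested cholangiocyte markers the keratins Krt8 and Krt18, which hepatocytes also make, fell, with log2 changes of -0.87 ± 0.12 and -0.60 ± 0.13 (adjusted p = 5.32e-05 and 0.00224, 0.177 with depth), and 2 rose (1 and 1 with the depth covariate), of which Onecut2, a transcription factor, changed most (0.64 ± 0.08, adjusted p = 8.82e-06). Of 5 tested erythroid genes the heme synthesis gene Alas2 fell (log2 change -0.49 ± 0.12, adjusted p = 0.00429, 0.0702 with depth). The 3 tested genes of the adipocyte list include Cfd and Cidea, which fell (1 of the list with the depth covariate) and which fatty livers can also express, and Adipoq, which defines adipocytes, was not analysed here. Of 10 acinar markers 1 was tested, Cela1, which fell (log2 change -0.50 ± 0.10, adjusted p = 0.00145).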

How the data were processed

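RNA from 24 mouse livers was sequenced in 101 bp read pairs from stranded mRNA libraries, per the labels' protocols. The authors' deposited table holds FPKM for 14293 protein-coding genes, of which all matched GENCODE M21 (GRCm38) by identifier. Per the submitters' processing notes, HISAT2, StringTie and DESeq2 were used. Their versions, roles and parameters, the genome build and the use of strand in counting are not stated by any label or header read here. FPKM depend on each library's total and on transcript length, and they are not counts, so no count test was used. The FPKM of the semaglutide columns were written with other spacing and decimals than the rest, and rows sharing a symbol are identical there only, so a separate step for these columns cannot be told apart from the treatment.

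Testing took the 11400 genes that reached 0.5 FPKM in 8 or more of the 16 livers and was done on log2(FPKM + 1) with limma 3.58.1 (lmFit and eBayes with trend) in R 4.3.3, with Benjamini-Hochberg adjustment over all of them. A gene could enter through 1 group alone, which favours a change towards that group. The 6 rows that share a gene symbol with another row were left out. Values given after a log2 change are standard errors, and ranges are over the 8 livers of a group. Single values per library were compared by exact permutation tests, 2-sided. GC content and exon length came from the annotation, and their trend was removed in each library with splines of 5 degrees of freedom. The fit was tested on simulated data. The depth implied by FPKM steps is an estimate.

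The text names genes from the 12 largest rises and the 12 largest falls with a mean of at least 1 FPKM in a group, the 4 members of lowest p and the 2 of highest level in each list, and a set of genes of the disease and the drug. Members, lists and this rule were chosen with earlier results of these data known. Lists are described by counts and medians, without a test. Alternatives covered the pseudocount, the filter, scaling, the GC and length trend, the replicate number as a block, the fit and each library left out. Implied depth as a covariate, with and without vehicle replicate 7, and the removal of semaglutide replicates 5 and 7 were added after the data had been seen.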

Additional observations from a re-analysis of the deposited data

Results flagged for a closer look

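Single livers stood apart in 11 of 278 groups of 8 values examined on log2(FPKM + 1), where the gap to the nearest liver, as a share of the group's range, exceeded Dixon's critical value. Chance alone gives about 1 in 20 groups. Of these, 3 concerned vehicle replicate 7, the deepest library. It was highest in its group for Colec11, a collectin, at 54.08 FPKM against 28.03 to 36.3 in the others, and for Cxcl14, at 8.36 against 3.12 to 4.43, and lowest for Gm3776, at 1.44 against 2.28 to 3.25. Semaglutide replicate 7, one of the livers nearest to vehicle on the first principal component, was highest for Srxn1, at 44.47 FPKM against 18.75 to 23.59, and for Gsta1, at 3.61 against 0.3 to 1.31. Semaglutide replicate 1 was lowest for Spp1, at 85.7 FPKM against 163.51 to 266.64, and for Apoa4, at 649.56 against 973.63 to 1395.46. In the vehicle group Apoa4 was highest in replicate 2, at 3405.7 FPKM against 1981.3 to 2393.47. Acot3 was lowest in semaglutide replicate 6, at 2.73 FPKM against 9.32 to 18.54. Cfd was lowest in vehicle replicate 6, at 0.88 FPKM against 5.74 to 17.87. Inhba was highest in vehicle replicate 1, at 1.55 FPKM against 0.91 to 1.17. The cause of each was not tested.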

How the results depend on the processing

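Over 34 alternatives, the 127 genes that passed, of the 139 named, never turned direction, and 56 of them kept their call in each. Of the other 71, 60 lost it only with implied depth as a covariate, and 11 in another setting: Tff3, Cfd, Adgre1, Cd5l, Nr0b2, Cpt1a, Igf1, Alb, Apoa1, Saa1 and Hspa5. With the depth covariate 1139 genes passed (684 higher, 455 lower), and 853 (503 and 350) without vehicle replicate 7 as well. The depth values are estimates, and their part in the calls cannot be told apart from the treatment. The count of 62 genes with a change of at least 2-fold was 94 at a pseudocount of 0.5, 152 at 0.1 and 115 on the TPM scale. Without semaglutide replicates 5 and 7, 1233 genes had groups that did not overlap, and the implied depths of the groups did not overlap either. Leaving out each library in turn gave 2887 to 3577 genes passing (1538 to 1806 higher, 1341 to 1771 lower), 54 to 69 of at least 2-fold and 680 to 904 without overlap. With the replicate number as a block 2988 genes passed. The same-numbered livers' deviations correlated at -0.25 to 0.26 and in 0 of 8 cases best with their own number. No pairing by number was seen, though a weak one could be missed. Genes that did not pass and turned sign, the cause of which was not tested, were Fasn (-0.0217 and -0.00538 without semaglutide replicate 4 or 6, -0.51 with the depth covariate and -0.53 without vehicle replicate 7 as well), Scd1 (-0.0132 with quantile normalization, -0.25 and -0.27 in those depth fits), Gcgr (0.0183 with the GC and length trend removed, with and without the block, 0.0862 and 0.13 in the depth fits), Pon2 (-0.11 with that trend removed, with and without the block), Clec4f (0.20 with the depth covariate) and Pck1 (0.00156 with depth and without vehicle replicate 7).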
